A study of Mus musculus with 22 samples.

Results

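The BCL-2 family genes followed here are the 10 genes with the symbols Bcl2, Bcl2l1, Mcl1, Bcl2a1b, Bcl2a1d, Bax, Bak1, Bcl2l11, Bid and Pmaip1, of 38293 genes in each of the 2 deposited expression tables. They were found by symbol and joined between the tables by Ensembl identifier. All 10 passed the filter on low values in both tables. The study sequenced RNA of bone marrow-derived macrophages, which are macrophages grown from marrow precursors in medium with L929 cell supernatant, a source of the growth factor CSF-1. Every culture, controls included, came from Il10-/- C57BL/6 mice aged 6 to 12 weeks. Cultures were left as controls or received lipopolysaccharide (LPS, a bacterial ligand of Toll-like receptor 4) at 100 ng per ml, IL-10 at 100 ng per ml, or LPS with IL-10. The 3 h table holds the groups control, LPS, IL-10 and LPS with IL-10. A second table holds a control group, whose harvest time the labels do not give, and the same 3 treatments at 6 h and at 12 h. Each of the 11 groups has 2 libraries. The Il10 allele is not given in the labels, nor is it stated whether the libraries of a group came from separate animals or cultures. All p-values therefore measure the spread between these libraries, which may be technical.

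The BCL-2 family sets whether the mitochondrial outer membrane stays intact. The anti-apoptotic proteins BCL-2, BCL-XL (gene Bcl2l1), MCL-1 and A1 (the Bcl2a1 genes) hold back the effectors BAX and BAK (gene Bak1), which form the pores that release cytochrome c. The BH3-only proteins BIM (gene Bcl2l11), BID and NOXA (gene Pmaip1) work against the anti-apoptotic proteins, and BIM and active BID can also switch on the effectors. In macrophages, A1 is known as a gene induced by NF-kappaB, and MCL-1 as a short-lived protein made from an abundant mRNA.

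Recovered depth ran from 9337222 to 31772075 reads per library, and 1 read was worth 0.588 to 2.17 normalized reads. Macrophage markers were high in every library, with a summed level of 346815 to 475618 normalized reads in the 3 h table and 323226 to 571336 in the other. The lists of 7 neutrophil and 4 B-cell markers summed to at most 125 and 11.9 normalized reads. The sums of 3 other lists were mostly higher with LPS alone than in the controls. The T-cell sum of the first LPS library at 12 h, 51.8, was below both controls of its table (57.1 and 61.3). The 4 dendritic-cell markers summed to 63.3 and 44.1 in the 3 h controls and 325 and 286 with LPS, and to 18.7 and 27.9 in the other controls and 193 and 181 with LPS at 6 h, most of it Xcr1. The 5 T-cell markers went from 57.1 and 61.3 to 282 and 228 at 6 h, most of it Lck, while Cd3e reached at most 1.67 in any library. The 4 fibroblast markers summed to 2.81 and 3.10 in the second table's controls, 84.6 and 125.6 with LPS at 6 h and 142 and 179 with LPS at 12 h, nearly all of it Dcn with LPS, and Col3a1 was at 0 in every library. Their part in the changes of the members was not tested. Il10 had reads in every library, from 95.3 to 1576 normalized reads, and a total per gene cannot tell whether they lie outside the deleted part. Some libraries stood apart from their partner. The libraries of a group differed along transcript GC content, with a rank correlation of 0.80 over 12757 genes in the control of the second table and -0.62 over 12278 genes in the 3 h control. At 12 h the first LPS library had 8290 normalized reads over the proliferation markers and the second 1755. Between the libraries of LPS with IL-10 at 12 h, Bcl2a1b differed 5-fold. Results that rest on these libraries are given with and without them. In bulk RNA, fewer cells of a kind and less RNA per cell cannot be told apart.

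With LPS both Bcl2a1 genes rose and Bcl2 fell at each time, and every limma call for IL-10 came from the comparison in which LPS was also present. The number of members called with LPS was near the share of all genes at 3 h and 6 h. Against control at 3 h, 3 members rose and 3 fell with LPS, where 27.6% of all 12338 genes tested rose and 25.9% fell. At 6 h, 6 members rose and 1 fell, where 28.4% of the 12817 genes rose and 31.3% fell. At 12 h, 6 members again rose and 1 fell, beside 23.7% and 23.8% of all genes. Adding IL-10 to LPS raised 1 member and lowered 3 at 3 h, where 4.68% of genes rose and 4.92% fell. The same addition raised none and lowered 4 at 6 h, where 13.7% rose and 10.0% fell. At 12 h it changed 0 members by limma, edgeR and DESeq2 (2 at an unadjusted p below 0.05), where 2.68% of genes rose and 2.23% fell. All calls in the text are from limma on log2(value + 1) with Benjamini-Hochberg adjustment over all genes tested and a threshold of 0.05, unless another tool is named.

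**Figure D1:**
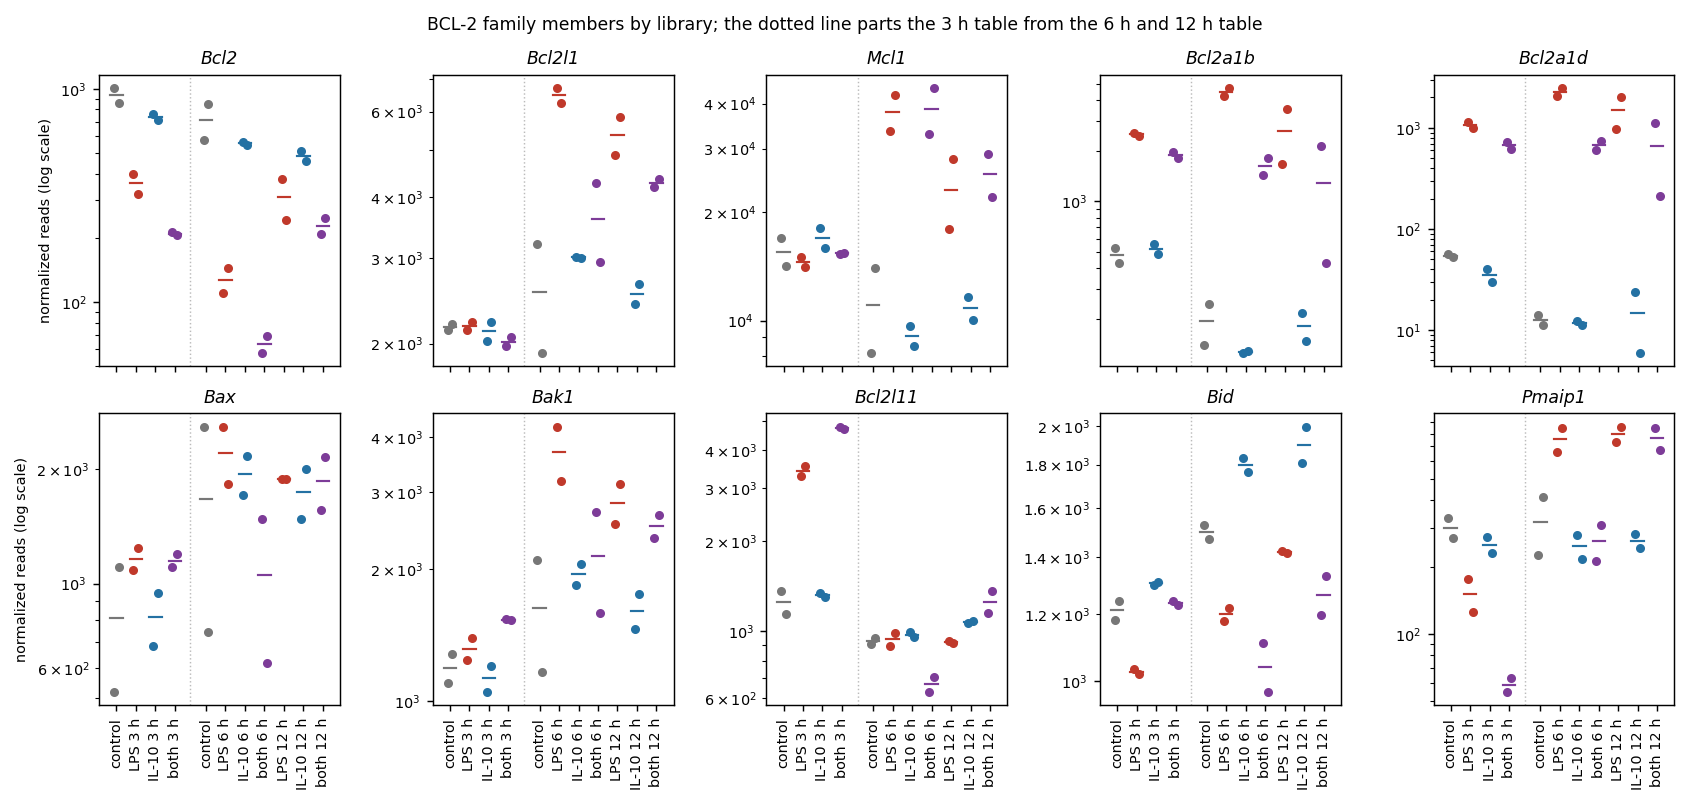
Normalized reads (log scale, each panel with its own range) of the 10 members in each library; points are single libraries, short lines the mean of the 2 libraries of a group, and the dotted line separates the tables, which were normalized separately. Bcl2 is lowest with LPS and IL-10 at 6 h (57.5 and 69.2). Both Bcl2a1 genes lie above the controls of the same table in every library that received LPS.

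IL-10 alone gave no call by limma on the deposited scale. The member nearest to one was Bcl2a1d at 3 h, with 40.1 and 29.7 normalized reads against 56.6 and 52.6 in the controls (-0.65 ± 0.17, adjusted p = 0.148). It passed with a replicate block (adjusted p = 0.0358) and with the GC trend removed (adjusted p = 0.0201). At 3 h, 0 members passed by limma, edgeR or DESeq2 (2 at an unadjusted p below 0.05), beside 1.64% of all genes. At 6 h the count was 0 by all 3 tools, also at an unadjusted p below 0.05, beside 0.0624% of genes. At 12 h it was 0 by all 3 tools (1 at an unadjusted p below 0.05), beside 1.56% of genes. The interaction asks whether the IL-10 effect differed with and without LPS. It called 0 members by limma and edgeR and 1 by DESeq2 at 3 h (4 at an unadjusted p below 0.05), beside 2.79% of genes. At 6 h it called 0 by limma and edgeR and 1 by DESeq2 (6 at an unadjusted p below 0.05), beside 6.72% of genes. At 12 h it called 0 by all 3 tools (1 at an unadjusted p below 0.05), beside 0.382%. In the main limma fit the effect of IL-10 is therefore not shown to differ between LPS-treated and untreated cells for any member. The DESeq2 calls were Pmaip1 at 3 h and Bcl2l1 at 6 h. Some other limma settings also made calls. Among them, the replicate block called Bcl2a1b (-0.54, limma adjusted p = 0.0440) and Pmaip1 (limma adjusted p = 0.0459) at 3 h. Fitting only the groups compared called Bcl2a1d at 6 h (-1.66, limma adjusted p = 0.0310).

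Levels in the controls spanned a wide range. Per kilobase of exon length in the 3 h control, Mcl1 stood first at 4540.4 ± 571 normalized reads (SD, n = 2). Bcl2a1b at 586 ± 79.9, Bax at 514 ± 263, Bak1 at 495 ± 53.6 and Bcl2l1 at 471 ± 9.37 followed, and neighbours in this order did not differ beyond their SDs. Bid stood at 342 ± 12.5 normalized reads per kilobase. Bcl2l11 at 156 ± 19.3, Pmaip1 at 109.9 ± 16.1, Bcl2 at 102 ± 12.0 and Bcl2a1d at 63.3 ± 3.34 formed the low end, where Pmaip1 and Bcl2 did not differ beyond their SDs. In the control of the second table, Mcl1 was again first (3239 ± 1219) and Bcl2a1d last (14.6 ± 2.37). The places of Bcl2a1b and Bcl2a1d are as counted, and reads shared between the Bcl2a1 gene copies could move them.

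Bcl2 (ENSMUSG00000057329; GRCm38 chromosome 1, 106538178 to 106714274, minus strand), the founding anti-apoptotic gene, fell with LPS at each time and was lower still when IL-10 was added at 3 h and 6 h. At 3 h the controls had 1011 and 856 normalized reads, IL-10 alone 766 and 715, LPS 399.7 and 322, and LPS with IL-10 213 and 206. None of these groups overlapped another. The LPS change was -1.37 ± 0.14 (log2 ± SE, limma adjusted p = 2.44e-05) and the further change with IL-10 was -0.77 ± 0.14 (adjusted p = 0.006). In the second table the controls had 574 and 846 normalized reads, LPS at 6 h 111 and 144, and LPS with IL-10 at 6 h 57.5 and 69.2. Again every LPS library lay below every control, and those with IL-10 lay lowest. The changes at 6 h were -2.46 ± 0.27 for LPS (limma adjusted p = 2.48e-05) and -0.99 ± 0.27 for IL-10 added to LPS (adjusted p = 0.0234). The decreases with LPS were called under each alternative at 3 h and 6 h. At 12 h, LPS gave -1.20 ± 0.27 (limma adjusted p = 0.00388), and the call was lost only when just the compared groups were fitted. The decrease with added IL-10 at 3 h was called under all 12 other settings, and fell short without the first LPS library (-0.62) or without either library of LPS with IL-10 (-0.80 and -0.75). At 6 h it fell short at equal library totals (-0.67), with the compared groups fitted alone (-0.99), and without any single one of the 4 libraries compared (-0.80 to -1.17). IL-10 alone gave -0.33 ± 0.14 at 3 h, -0.33 ± 0.27 at 6 h and -0.53 ± 0.27 at 12 h, none past the threshold.

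Bcl2 was the member that LPS moved differently at 6 h and 12 h. LPS libraries had 379 and 243 normalized reads at 12 h, above the 111 and 144 at 6 h and below the controls. Of the family, 1 member rose between LPS at 6 h and at 12 h, where 11.1% of all genes rose, and it was Bcl2 (1.26 ± 0.27, limma adjusted p = 0.0115). That call was lost without the first LPS library of 12 h (0.94) or of 6 h (1.08), and with quantile normalization (0.93). The first LPS library of 12 h is the one with 8290 normalized reads over the proliferation markers. Its part in the result was not tested beyond leaving it out. With LPS and IL-10, the level rose from 57.5 and 69.2 at 6 h to 208 and 247 at 12 h (1.83 ± 0.27, limma adjusted p = 0.00233), a call made under every alternative. IL-10 during LPS gave -0.42 ± 0.27 at 12 h, with overlapping libraries (208 and 247 against 379 and 243).

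Bcl2l1 (ENSMUSG00000007659; chromosome 2, 152780668 to 152831728, minus strand), which encodes BCL-XL, was level at 3 h and higher with LPS at 6 h and 12 h. All 8 libraries of the 3 h table lay between 1975 and 2215 normalized reads. In the second table the controls had 3204 and 1911, LPS at 6 h 6718 and 6254, and LPS at 12 h 4879.8 and 5857. Each LPS library lay above both controls. The changes with LPS were 1.39 ± 0.24 at 6 h (limma adjusted p = 0.000593) and 1.11 ± 0.24 at 12 h (adjusted p = 0.00369). Adding IL-10 at 6 h gave 4288 and 2940.1 normalized reads, lower than either LPS library (-0.87 ± 0.24, adjusted p = 0.0281). The call with IL-10 was lost without the first LPS library (-0.82), the second (-0.92) or the second library of LPS with IL-10 (-0.60). Equal library totals (-0.55) and quantile normalization (-0.57) also took it below the threshold. With IL-10 alone Bcl2l1 had 3019 and 3006 at 6 h. At 12 h LPS with IL-10 gave 4194 and 4367, below both LPS libraries, and did not pass (-0.32 ± 0.24, adjusted p = 0.54).

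Mcl1 (ENSMUSG00000038612; chromosome 3, 95658788 to 95663176, plus strand) was also level at 3 h on the deposited scale and higher with LPS later, with no call for IL-10. Levels of 14116 to 18065 normalized reads at 3 h covered all 4 groups (LPS -0.09 ± 0.11). At equal library totals (-0.68) and with quantile normalization (-0.91) Mcl1 was called lower with LPS at 3 h. At 6 h LPS gave 33615 and 42314 normalized reads and LPS with IL-10 32994 and 44223, against 8123 and 14016 in the controls. The LPS libraries lay well above every control, and the pair with IL-10 overlapped them. The LPS change was 1.82 ± 0.31 at 6 h (limma adjusted p = 0.000446), and IL-10 during LPS gave 0.02 ± 0.31 (adjusted p = 0.972). At 12 h LPS gave 17953 and 28076 (1.07 ± 0.31, adjusted p = 0.0145), a call lost without the first control (0.68) or the second LPS library (0.75). It was also lost with library weights (1.07) and with only the compared groups fitted (1.07). Equal library totals (0.34) and quantile normalization (0.05) took it too.

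Bcl2a1b (ENSMUSG00000089929; chromosome 9, 89199209 to 89207827, plus strand) and Bcl2a1d (listed as ENSMUSG00000096581; chromosome 9, 88723285 to 88731914, minus strand) encode A1 and rose most of all members. At 3 h Bcl2a1b had 525 and 432 normalized reads in the controls and 2569 and 2450.2 with LPS. Bcl2a1d had 56.6 and 52.6 in the controls and 1146 and 1002 with LPS. Neither gene's LPS libraries came near the controls. The changes were 2.39 ± 0.12 (limma adjusted p = 2.05e-07) and 4.27 ± 0.17 (adjusted p = 4.74e-08). At 6 h Bcl2a1b went from 139.6 and 245 to 4259 and 4754 (4.60 ± 0.61, limma adjusted p = 9.09e-05). Bcl2a1d went from 14.05 and 11.2 to 2071 and 2493 (7.39 ± 0.72, adjusted p = 1.3e-05). At 12 h the changes were 3.72 ± 0.61 and 6.69 ± 0.72, and all 6 increases were called under every alternative.

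The gene copies share sequence, so the split between them is uncertain. GENCODE lists 4 Bcl2a1 genes in mouse, all on chromosome 9. The transcripts of Bcl2a1b and Bcl2a1d are identical at 810 of 817 aligned bases (99.1%), and 57.6% of the 50-base windows of Bcl2a1b occur unchanged in Bcl2a1d. The counting rule for reads that match several genes is not given in the sources used here. With the 4 rows summed, LPS still gave 2.81 at 3 h, 5.24 at 6 h and 4.48 at 12 h (log2). The sequence before the genes is shared too, and it is shown because the copies moved together. Each line gives the bases upstream of the annotated gene start, from the RefSeq promoter table of GRCm38.p6. They lie at chr9:88956670-88956899 (plus strand) for Bcl2a1a, chr9:89199023-89199208 (plus strand) for Bcl2a1b and chr9:88731915-88732100 (minus strand) for Bcl2a1d. Capitals mark the longest run common to the 3, which is 84 bases long.
Bcl2a1a: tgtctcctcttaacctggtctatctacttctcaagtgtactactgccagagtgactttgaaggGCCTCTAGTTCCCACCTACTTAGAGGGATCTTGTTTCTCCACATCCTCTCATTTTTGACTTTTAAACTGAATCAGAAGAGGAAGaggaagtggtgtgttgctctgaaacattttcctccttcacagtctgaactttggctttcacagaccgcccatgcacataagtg
Bcl2a1b: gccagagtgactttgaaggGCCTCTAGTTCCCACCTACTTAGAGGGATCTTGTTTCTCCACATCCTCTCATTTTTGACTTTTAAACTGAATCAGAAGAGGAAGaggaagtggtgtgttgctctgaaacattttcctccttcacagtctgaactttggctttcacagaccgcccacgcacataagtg
Bcl2a1d: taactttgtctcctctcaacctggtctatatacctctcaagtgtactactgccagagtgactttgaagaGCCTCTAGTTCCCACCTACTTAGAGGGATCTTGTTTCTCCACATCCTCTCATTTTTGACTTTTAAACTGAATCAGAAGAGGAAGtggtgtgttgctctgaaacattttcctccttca
Aligned, the segments of Bcl2a1a and Bcl2a1b are identical at 185 of 186 bases and those of Bcl2a1b and Bcl2a1d at 135 of 136. Neither a kappaB consensus nor the motifs TTCNNNGAA (STAT) or GAAANNGAA (IRF) had a match on either strand in the 250-base promoter windows of these 3 genes. Those windows hold the bases shown and run on past the annotated gene starts. In all 32851 windows of that length, 7.25%, 7.02% and 7.13% hold one. No match says only that these letters are not in this window.

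**Figure D2:**
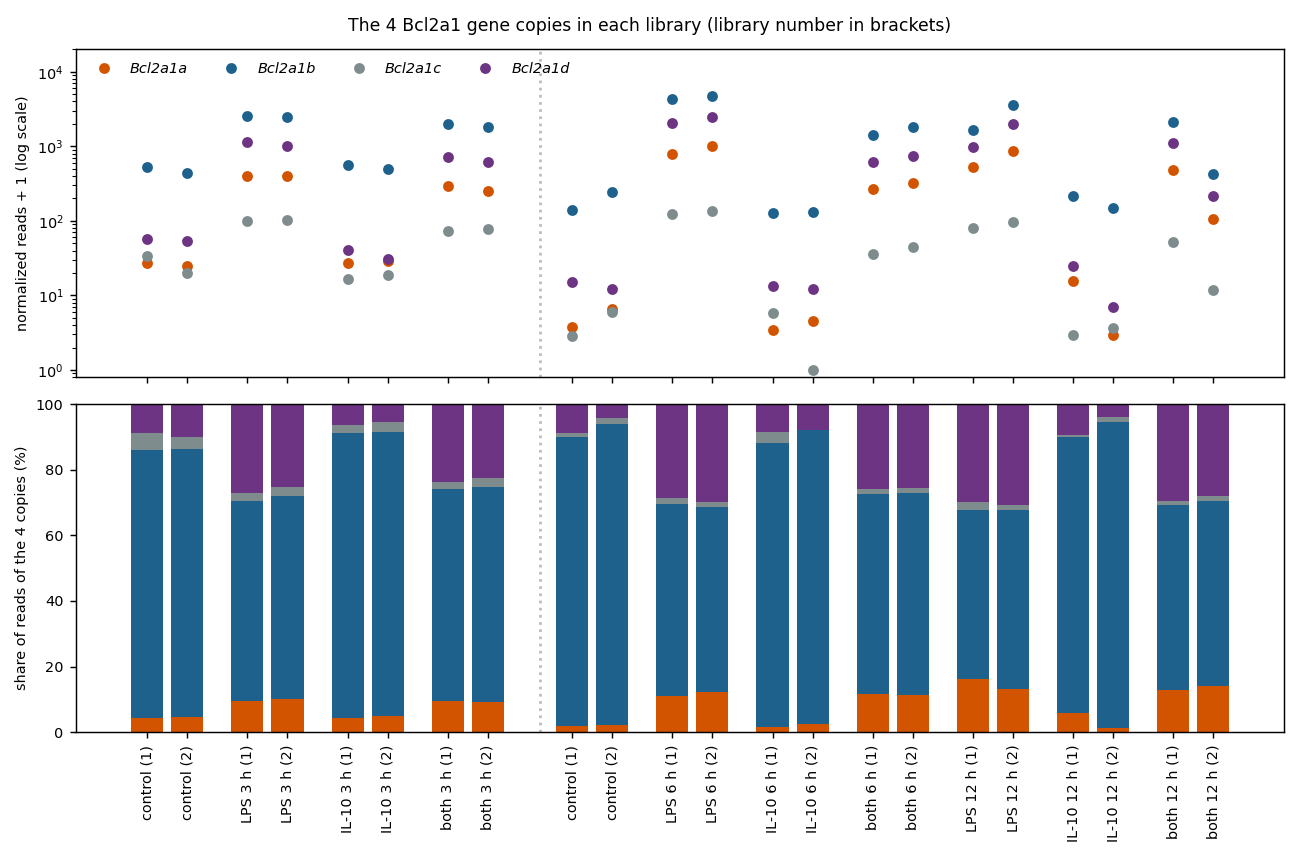
Normalized reads plus 1 (log scale, top) of the 4 Bcl2a1 copies in each of the 22 libraries, and each copy's share of their summed reads in percent (bottom). Bcl2a1b takes 81.8% and 81.9% of them in the 3 h controls, against 61.0% and 62.0% in the LPS libraries.

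The rise was uneven between the copies as counted. In the 3 h controls Bcl2a1b held 81.8% (95% Wilson interval 77.7 to 85.4) and 81.9% (79.0 to 84.5) of the reads of the 4 copies. With LPS its share was 61.0% (59.4 to 62.6) and 62.0% (60.4 to 63.6). The share of Bcl2a1d went from 8.83% (6.39 to 12.1) and 9.96% (8.02 to 12.3) to 27.2% (25.7 to 28.7) and 25.4% (24.0 to 26.8). In the second table Bcl2a1b went from 88.2% (82.4 to 92.2) and 91.9% (88.9 to 94.1) to 58.8% (57.1 to 60.5) and 56.6% (55.2 to 57.9) at 6 h. The intervals of control and LPS libraries did not meet in either table. They cover counting error only, and reads shared between copies could move the shares.

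With IL-10 added to LPS, both Bcl2a1 genes had lower levels at 3 h and 6 h, and whether these were called depended on the fit. At 3 h Bcl2a1b had 1977 and 1805 normalized reads and Bcl2a1d 724 and 621, each below both LPS libraries. Bcl2a1d passed the test (-0.67 ± 0.17, limma adjusted p = 0.0399) and Bcl2a1b did not (-0.41 ± 0.12, adjusted p = 0.0655). The Bcl2a1d call was lost without any single one of the 4 libraries compared (-0.56 to -0.78), with quantile normalization (-0.63) and with no filter (-0.67). Bcl2a1b passed by edgeR (adjusted p = 0.0487) and DESeq2 (adjusted p = 0.0459), at equal library totals, with library weights, with the block, with the GC trend removed and with only the compared groups fitted. With the 4 copies summed the change was -0.49 (limma adjusted p = 0.0316). At 6 h Bcl2a1b had 1438 and 1803 and Bcl2a1d 607 and 743 normalized reads, again below both LPS libraries. Both changes were larger, -1.48 ± 0.61 (adjusted p = 0.0985) and -1.76 ± 0.72 (adjusted p = 0.0952), and neither passed. Their SE carries the spread of the 12 h libraries, and without either combined-treatment library of 12 h both passed at 6 h with the same change. Both also passed by DESeq2 (adjusted p = 0.0394 and 0.0265), with only the compared groups fitted (limma adjusted p = 0.00429 and 0.00314) and with the GC trend removed (adjusted p = 0.0288 and 0.0432). At 12 h the libraries of LPS with IL-10 had 2146 and 427 for Bcl2a1b and 1119.9 and 212 for Bcl2a1d. The LPS libraries had 1669.5 and 3575 for Bcl2a1b, so the groups overlapped (-1.35 ± 0.61, adjusted p = 0.251). Without the first combined-treatment library the change was -2.51 for Bcl2a1b and -2.72 for Bcl2a1d, and these values rest on the second library alone. For both genes the first combined-treatment library lay between the LPS libraries, which had 974 and 2013 for Bcl2a1d. A decrease at 12 h therefore depends on which library is kept.

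Bax (ENSMUSG00000003873; chromosome 7, 45461697 to 45466898, minus strand) was the member whose libraries disagreed most in the controls. The 3 h controls had 518 and 1104 normalized reads, the LPS libraries 1087 and 1241, those given IL-10 alone 685 and 945, and those given the combination 1103 and 1194. The controls of the second table had 2589 and 744, LPS at 6 h 2585 and 1829, and LPS with IL-10 at 6 h 1483 and 617. Control and LPS libraries overlapped in each case. LPS gave 0.62 ± 0.29 at 3 h (limma adjusted p = 0.102), 0.65 ± 0.52 at 6 h (adjusted p = 0.307) and 0.44 ± 0.52 at 12 h (adjusted p = 0.517). Bax has the highest transcript GC content of the members (63.5%), and the difference between its control libraries in the second table was 1.80 (log2). With the GC trend removed from each library, an alternative chosen after seeing the data, LPS gave 0.73 at 3 h, 1.08 at 6 h and 0.57 at 12 h, all past the threshold. That step also raised the calls over all genes, for LPS at 6 h from 3644 higher and 4009 lower to 4674 and 4445. At 3 h Bax also passed with the replicate block (limma adjusted p = 0.0199). Leaving out the higher control gave larger changes: the second at 3 h (1.16), and the first at 6 h (1.55) and 12 h (1.34). These values rest on the lower control alone. The higher control lay between the LPS libraries at 3 h. In the second table it lay above the LPS libraries of 6 h and of 12 h (1881 and 1889), so the change depends on which control is kept. At equal library totals the change was 0.03 at 3 h and turned negative at 6 h (-0.49) and 12 h (-0.30), none past the threshold. IL-10 during LPS at 6 h gave -1.18 ± 0.52 without passing (adjusted p = 0.119). Bax overlaps the predicted gene Gm45808 on the same strand, so reads there may be counted for either.

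**Figure D3:**
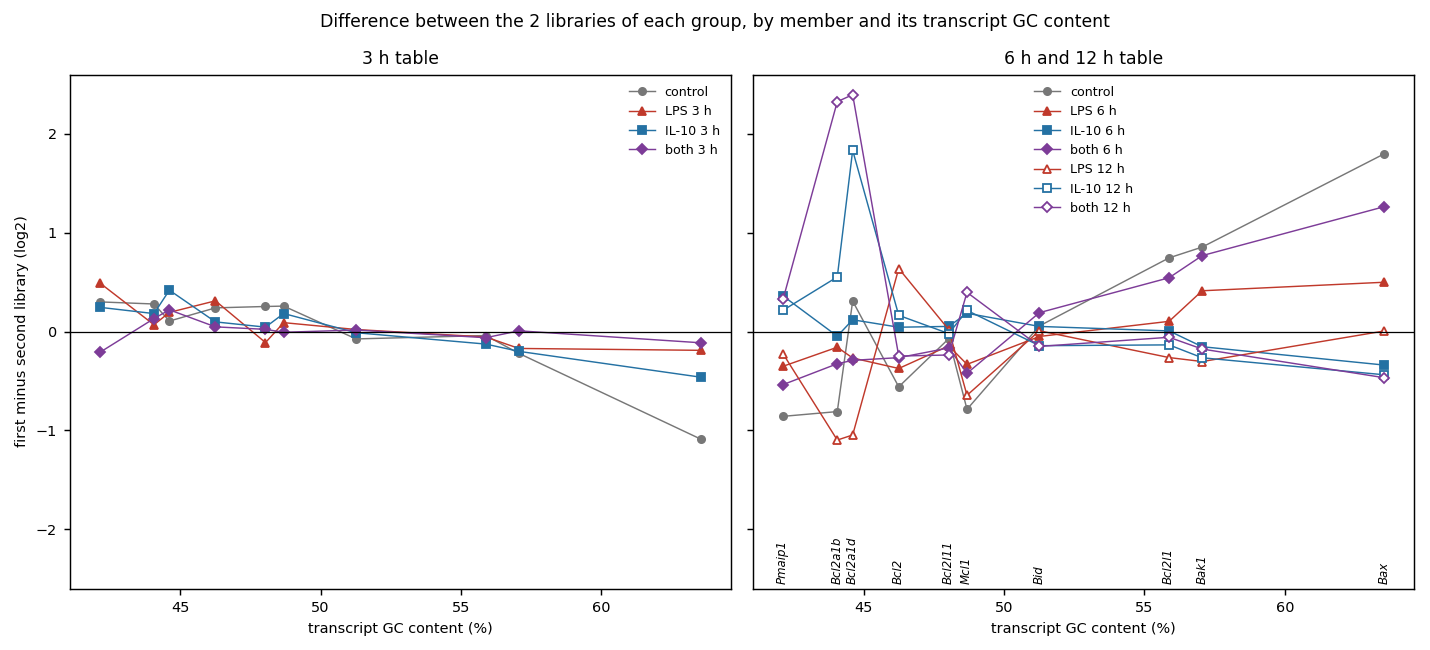
Difference between the first and the second library of each group (log2 of normalized reads plus 1) for each member, against its transcript GC content in percent; points of a group are joined, and open symbols are 12 h groups. Bax, at 63.5% GC, differs by 1.80 between the controls of the second table, and Bcl2a1b and Bcl2a1d differ most between the libraries of LPS with IL-10 at 12 h.

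Bak1 (ENSMUSG00000057789; chromosome 17, 27019810 to 27029009, minus strand), the other effector, rose with LPS in the second table. The controls had 2102 and 1162 normalized reads, LPS at 6 h 4224 and 3173, and LPS at 12 h 2529 and 3122. All 4 LPS libraries lay above both controls. The changes were 1.23 ± 0.31 at 6 h (limma adjusted p = 0.0052) and 0.85 ± 0.31 at 12 h (adjusted p = 0.0416). The 12 h call was made in 5 of 14 fits that left out a library and in 5 of 13 other settings. Without the second control it was 0.42 and without the second LPS library 0.69. LPS with IL-10 at 6 h gave 2698 and 1584, below both LPS libraries, and did not pass (-0.82 ± 0.31, adjusted p = 0.0739). At 3 h its levels were 1099 and 1282 in controls and 1237 and 1393 with LPS, which overlapped.

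Bcl2l11 (ENSMUSG00000027381; chromosome 2, 128126038 to 128162547, plus strand), which encodes the BH3-only protein BIM, rose with LPS at 3 h, and IL-10 raised it further. The controls had 1363 and 1143 normalized reads, IL-10 alone 1341 and 1301, LPS 3295 and 3560.3, and LPS with IL-10 4793 and 4721. Both LPS groups stood clear of the controls and of each other. LPS gave 1.46 ± 0.10 (limma adjusted p = 2.12e-06, called under every alternative) and the addition of IL-10 0.47 ± 0.10 (adjusted p = 0.0172). The second call was made under all 12 other settings and lost without any single one of the 4 libraries compared (0.42 to 0.53). By 6 h the level with LPS (896 and 990.4) overlapped that of the controls (907 and 953), with a change of 0.02 ± 0.15. IL-10 now went with lower levels, 629 and 706 normalized reads, below both LPS libraries and both controls (-0.50 ± 0.15, limma adjusted p = 0.0333). This call was made in 7 of 13 other settings and in 6 of 14 fits that left out a library (-0.42 to -0.58). At equal library totals it was -0.18. At 12 h LPS with IL-10 had 1153 and 1359 normalized reads against 928 and 916 with LPS (0.44 ± 0.15, adjusted p = 0.121).

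The order of LPS and LPS with IL-10 for Bcl2l11 thus turned over between the times, higher with IL-10 at 3 h, lower at 6 h and higher at 12 h. Within the second table, the difference in the IL-10 effect between 12 h and 6 h was 0.94 ± 0.21 (limma adjusted p = 0.0596). No test joins the 3 h table to the other, because the tables were normalized separately. Of the family, 0 members passed for that difference by limma and edgeR and 2 by DESeq2, Bcl2l11 (adjusted p = 0.00204) and Pmaip1 (adjusted p = 0.0263) (2 at an unadjusted p below 0.05 in limma), beside 1.15% of all genes. Between LPS with IL-10 at 6 h and at 12 h, 3 members rose, where 9.28% of all genes rose. They were Bcl2, Bcl2l11 (0.91 ± 0.15, adjusted p = 0.0039) and Pmaip1. FOXO factors are known to bind upstream of this gene, so the 250 bases before the first annotated start are shown, at chr2:128125788-128126037 on the plus strand (RefSeq promoter table, GRCm38.p6). Capitals mark the match to GTAAACA, a FOXO motif searched on both strands.
Bcl2l11: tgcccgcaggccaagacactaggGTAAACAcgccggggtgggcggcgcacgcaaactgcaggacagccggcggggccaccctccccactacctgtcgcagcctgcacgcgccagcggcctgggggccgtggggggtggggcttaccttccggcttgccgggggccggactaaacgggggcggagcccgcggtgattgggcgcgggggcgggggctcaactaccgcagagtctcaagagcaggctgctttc
The match begins 227 bases before the end of the window, and 3.17% of all windows of this length hold 1 or more. Among the windows of the 9 members found in the promoter table, none other had this motif, and a kappaB match occurred only in a window of Bcl2l1. A match is a description of the letters and not evidence of binding.

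Bid (ENSMUSG00000004446; chromosome 6, 120891930 to 120916853, minus strand), the BH3-only protein that caspase-8 cleaves, was slightly lower with LPS at 3 h. At 3 h it had 1181 and 1244 normalized reads in the controls and 1033 and 1018 with LPS, which did not overlap (-0.24 ± 0.08, limma adjusted p = 0.0375). That call was kept in 1 of 8 fits that left out a library (-0.20 to -0.28) and in 9 of 12 other settings. LPS with IL-10 had 1243 and 1230.0 at 3 h, above both LPS libraries, without passing (0.27 ± 0.08, adjusted p = 0.0867). At 6 h LPS gave 1177 and 1219 against 1529 and 1471 (-0.32 ± 0.14, limma adjusted p = 0.0673). That decrease passed by edgeR (-0.50, adjusted p = 0.00977), with TMM (-0.50) and with quantile normalization (-0.70). At equal library totals Bid fell with LPS at each time, by -0.83, -1.46 and -0.82. Bid overlaps Bcl2l13 on the opposite strand, and the use of strand in counting is not stated.

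Pmaip1 (ENSMUSG00000024521), which encodes NOXA, a BH3-only protein known to bind MCL-1, fell with LPS at 3 h and was higher with LPS at 6 h and 12 h. At 3 h the controls had 331 and 269 normalized reads, IL-10 alone 274 and 231, LPS 176 and 125, and LPS with IL-10 54.7 and 63.4. Levels were lowest with LPS and IL-10 together, and no library of that group came near LPS alone. LPS gave -1.003 ± 0.20 (limma adjusted p = 0.00244) and the addition of IL-10 -1.32 ± 0.20 (adjusted p = 0.00275). In the second table the controls had 228 and 413, LPS at 6 h 664 and 847, and LPS with IL-10 at 6 h 213 and 309.8. LPS with IL-10 overlapped the controls, and LPS stood above both. The LPS change was 1.29 ± 0.30 (limma adjusted p = 0.00331), and IL-10 during LPS gave -1.54 ± 0.30 (adjusted p = 0.00531). Both decreases with IL-10 were called under every alternative, -1.07 to -1.57 at 3 h and -1.22 to -1.85 at 6 h. The LPS increase at 6 h shrank to 0.15 at equal library totals and was not called there.

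At 12 h the effect of IL-10 on Pmaip1 was no longer detected. LPS gave 734 and 859 normalized reads (1.37 ± 0.30, limma adjusted p = 0.00344) and LPS with IL-10 850.4 and 677, which overlapped (-0.07 ± 0.30, adjusted p = 0.948). The level with LPS and IL-10 rose between 6 h and 12 h (1.56 ± 0.30, adjusted p = 0.00742), a call lost when the first 12 h library was left out of every group (1.39). The difference in the IL-10 effect between the times, 1.48 ± 0.42, did not pass (adjusted p = 0.106). It passed by DESeq2 (1.48, adjusted p = 0.0263), with the GC trend removed (1.81) and without either control library (1.48). The interaction for Pmaip1 was -1.07 ± 0.29 at 3 h (adjusted p = 0.103) and -1.23 ± 0.42 at 6 h (adjusted p = 0.0944). At 3 h it passed without either control library (-1.22 and -0.92), and at 6 h without the second control (-1.66). It also passed at 3 h with the replicate block (limma adjusted p = 0.0459), with the GC trend removed (-0.99) and by DESeq2 (adjusted p = 0.04999), and at 6 h with the GC trend removed (-1.74).

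**Figure D4:**
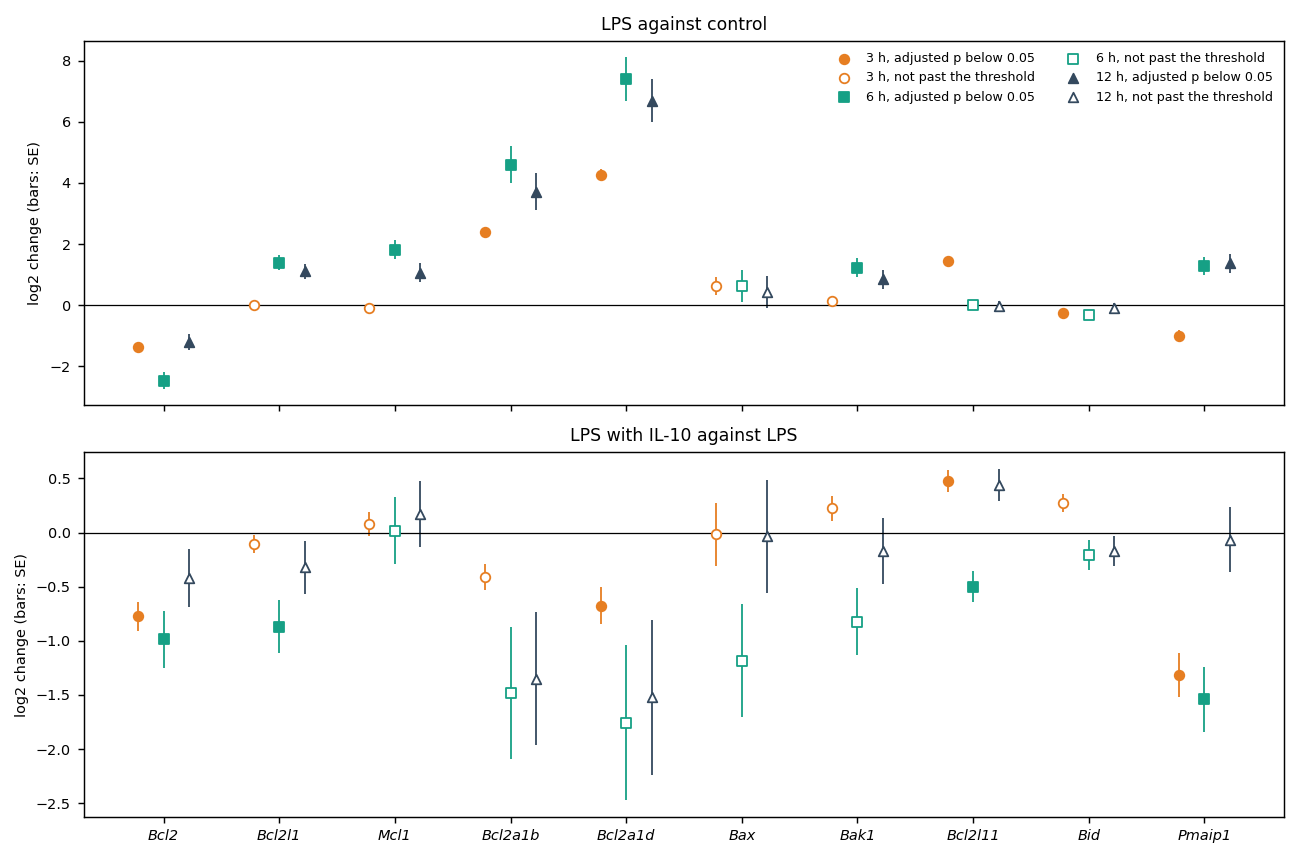
Log2 change ± SE of each member for LPS against control (top) and for LPS with IL-10 against LPS (bottom) at 3 h, 6 h and 12 h; filled symbols passed an adjusted p of 0.05 in limma. Both Bcl2a1 genes rise most with LPS, and Pmaip1 falls most among the called members when IL-10 is added.

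Seen over the members, the limma calls for IL-10 during LPS at 6 h on the deposited scale were decreases of anti-apoptotic as well as BH3-only genes. The 4 called decreases were those of Bcl2, Bcl2l1, Bcl2l11 and Pmaip1, where 10.0% of all genes fell. Only that of Pmaip1 was called under every alternative. At equal library totals Bcl2 (-0.67), Bcl2l1 (-0.55) and Bcl2l11 (-0.18) did not pass. The median change of the 10 members was -0.93 (log2) and that of all genes tested 0.01. At 3 h the medians were -0.06 and 0.01, and at 12 h -0.17 and -0.06. For LPS against control the members' median was 0.08 at 3 h, 1.26 at 6 h and 0.96 at 12 h, beside 0.03, -0.04 and -0.02 for all genes.

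The direction of several LPS changes depended on the scaling. The deposited size factors leave LPS libraries with larger normalized totals, 3.29e+07 and 3.55e+07 at 6 h against 1.46e+07 and 1.64e+07 in the controls. With equal library totals the median change of all genes tested was -0.57 at 3 h, -1.19 at 6 h and -0.77 at 12 h, against 0.03, -0.04 and -0.02 on the deposited scale. Under them Bcl2l1 and Bak1 turned to decreases at 3 h (-0.58 and -0.44), and Bcl2l11 to a decrease at 6 h (-1.12), all past the threshold. At 6 h Bcl2l1 (0.25), Bak1 (0.09) and Pmaip1 (0.15) kept their sign without passing, and Mcl1 passed (0.68). At 12 h none of Bcl2l1 (0.37), Mcl1 (0.34), Bak1 (0.11) and Pmaip1 (0.63) passed. Quantile normalization likewise took the 6 h calls of Mcl1 (0.23), Bcl2l1 (0.44) and Bak1 (0.52). It also took their 12 h calls (0.05 for Mcl1, 0.59 for Bcl2l1 and 0.48 for Bak1). The decrease of Bcl2 and the increases of both Bcl2a1 genes passed under each scaling at all times.

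**Figure D5:**
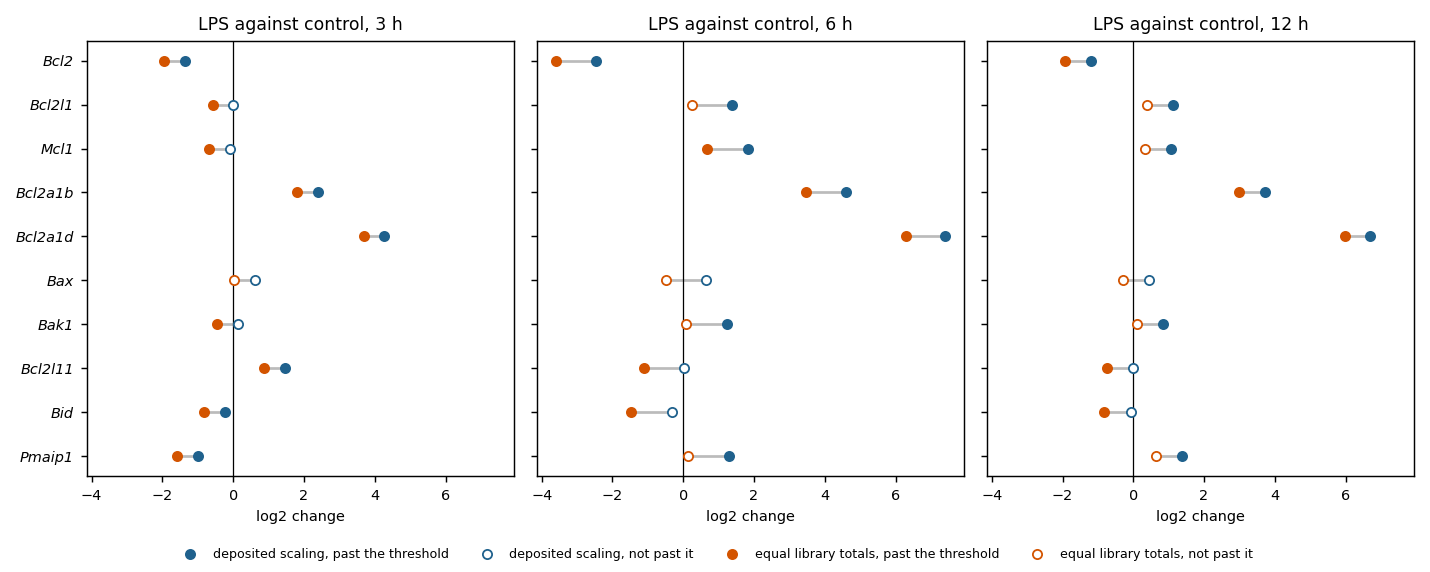
Log2 change of each member with LPS at 3 h, 6 h and 12 h under the deposited scaling (blue) and with every library set to the same total (orange); filled points passed the threshold. Equal totals shift all members to lower values, which takes Bcl2l11 at 6 h from 0.02 to -1.12, while the Bcl2a1 genes stay high.

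Other family genes were taken from a list of 16, of which 12 passed the filter at 3 h and 11 in the second table. LPS raised 3 and lowered 1 at 3 h, raised 3 and lowered 4 at 6 h, and raised 4 and lowered 2 at 12 h. Of all genes, 27.6% rose and 25.9% fell at 3 h, 28.4% and 31.3% at 6 h, and 23.7% and 23.8% at 12 h. The list's median change was 0.08 at 3 h, -0.52 at 6 h and 0.22 at 12 h, beside the medians of all genes given above. IL-10 during LPS raised 1 at 3 h and 3 at 6 h and lowered none, and at 12 h it changed 0 by limma. Of all genes, 4.68% rose and 4.92% fell at 3 h, 13.7% and 10.0% at 6 h, and 2.68% and 2.23% at 12 h. Bmf, which encodes a BH3-only protein held at the cytoskeleton, was at 60.0 and 58.9 normalized reads in the 3 h controls. The LPS libraries had 4.96 and 9.96, and those given LPS and IL-10 together 33.3 and 35.0. It was nearly lost with LPS and partly kept when IL-10 was present. LPS gave -2.90 ± 0.31 (limma adjusted p = 4.21e-05) and IL-10 during LPS 2.12 ± 0.31 (adjusted p = 0.00219), both called under every alternative. Its interaction at 3 h also passed (2.25 ± 0.44, adjusted p = 0.0278), in 3 of 8 fits that left out a library. At 6 h Bmf fell from 48.7 and 47.1 to 4.34 and 1.63 (-3.71 ± 0.67, adjusted p = 0.000686). Its values with LPS and IL-10 at 6 h, 5.83 and 18.2, did not pass against LPS.

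Bnip3, which encodes a mitochondrial protein known from hypoxia and mitophagy, responded to LPS with IL-10 at 6 h. The controls had 1250.4 and 2357 normalized reads, the LPS libraries 1145 and 1243, those given IL-10 alone 1171 and 1182, and those given the combination 5681 and 8449. Of the 6 h libraries, those with both agents stood above both controls and the others did not. IL-10 during LPS gave 2.54 ± 0.29 (limma adjusted p = 0.000304) and the interaction 3.08 ± 0.41 (adjusted p = 0.00323), both called under every alternative. At 12 h LPS alone had 3676 and 3537 and LPS with IL-10 4440 and 6040, and the effect of IL-10 differed from that at 6 h by -2.01 ± 0.41 (adjusted p = 0.0428). That difference passed in 4 of 14 fits that left out a library. Its relative Bnip3l rose with IL-10 during LPS at 6 h (1.34 ± 0.28, adjusted p = 0.00842), a call lost without the first LPS library (1.15) or the second library of LPS with IL-10 (1.01).

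The remaining calls of the list were few. Bcl2a1a and Bcl2a1c rose with LPS at each time (3.93 and 1.95 at 3 h, 7.49 and 4.97 at 6 h, 7.09 and 4.41 at 12 h), with the same doubt about shared reads. Bcl2l15 rose at 3 h (2.52), where it passed the filter. Bcl2l2, the anti-apoptotic gene for BCL-W, rose at 6 h (0.85) and 12 h (0.49), and turned negative at equal library totals (-0.29 and -0.25). Bcl2l12 fell at 6 h (-4.20) and was higher with IL-10 (2.53), from at most 62.8 normalized reads. Bcl2l13 fell at 6 h (-0.68) and 12 h (-0.43), Bnip3l fell at 6 h (-0.91), and Bnip3 rose at 12 h (1.07). Bad, Bik and Bbc3, the gene for PUMA, were tested and not called for LPS or IL-10 at any time. Bok, Hrk, Bcl2l10 and Bcl2l14 did not pass the filter in either table.

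Genes of the apoptosome and caspase list were called with LPS about as often as all genes at 3 h (27.6% higher and 25.9% lower). Of 13 apoptosome and caspase genes, LPS raised 5 and lowered 2 at 3 h, raised 6 and lowered 5 at 6 h, and raised 6 and lowered 3 at 12 h, with median changes of 0.20, 0.66 and 0.14. The shares of all genes were 28.4% higher and 31.3% lower at 6 h and 23.7% and 23.8% at 12 h. Cflar, which encodes the caspase-8 inhibitor cFLIP, went from 3999 and 3735 normalized reads to 39306 and 38640 at 3 h (3.33 ± 0.08, limma adjusted p = 2.51e-09). It also rose at 6 h (limma adjusted p = 1.17e-06) and, by 3.91 ± 0.27, at 12 h. Casp9, the caspase of the apoptosome, fell at 3 h (-1.76 ± 0.10) and its activator Apaf1 rose (1.48 ± 0.09). Casp8 rose at 12 h (1.26 ± 0.28), and Fadd fell at 6 h (-2.27 ± 0.24). IL-10 during LPS raised 4 of the list at 3 h, raised 4 and lowered 2 at 6 h, and raised 1 at 12 h. Of all genes, 4.68% rose and 4.92% fell at 3 h, 13.7% and 10.0% at 6 h, and 2.68% and 2.23% at 12 h. The caspase gene Casp6 was among the raised genes of the list each time. It had 155 and 174 normalized reads with LPS at 3 h and 352 and 364 with LPS and IL-10 (1.12 ± 0.13, limma adjusted p = 0.000602). At 6 h it went from 152 and 148 to 483 and 502 (1.71 ± 0.20), and at 12 h from 160.1 and 133 to 271 and 391 (1.15 ± 0.20). At 12 h the call was lost without the second library of LPS with IL-10 (0.89).

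Inhibitors of apoptosis and upstream regulators completed the lists. Of 5 IAP genes, LPS raised 3 and lowered 1 at 3 h, raised 4 and lowered 1 at 6 h, and raised 3 and lowered 1 at 12 h, with medians of 0.44, 0.89 and 0.87. These lists are small beside the shares of all genes, 27.6% and 25.9%, 28.4% and 31.3%, and 23.7% and 23.8% higher and lower at the 3 times, and nothing particular to them is read from their counts. Birc3 (cIAP2) rose by 2.75 ± 0.10, 3.56 ± 0.29 and 3.00 ± 0.29, Birc2 (cIAP1) by 2.34 ± 0.09, 1.85 ± 0.34 and 1.10 ± 0.34. Birc5 (survivin), which is also a proliferation gene, fell at 6 h (-1.89 ± 0.35) and 12 h (-2.49 ± 0.35), and was higher with IL-10 during LPS at 6 h (1.62 ± 0.35). The proliferation markers moved with it, from 22207 and 35523 in the controls to 2979 and 3686 with LPS and 11245 and 14895 with LPS and IL-10. Their part in the changes of the members at 6 h was not tested. Of 11 upstream regulators, LPS raised 5 and lowered 2 at 3 h, raised 6 and lowered 3 at 6 h, and raised 5 and lowered 2 at 12 h, with medians of 0.34, 0.64 and 0.29. IL-10 during LPS lowered 2 of them at 3 h, raised 1 and lowered 1 at 6 h, and lowered 1 at 12 h. Of all genes, 4.68% rose and 4.92% fell at 3 h, 13.7% and 10.0% at 6 h, and 2.68% and 2.23% at 12 h. Foxo3, which encodes a factor known to drive Bcl2l11 and Pmaip1 in other cells, went from 1268 and 982 to 123 and 142 normalized reads at 3 h (-3.07 ± 0.15). At 6 h it had 184 and 214 with LPS and 619.6 and 576 with LPS and IL-10 (1.59 ± 0.21, limma adjusted p = 0.000768). The kinase gene Pim1 rose by 3.59 ± 0.12, 5.22 ± 0.30 and 4.58 ± 0.30 with LPS and was lower with IL-10 at 6 h (-1.64 ± 0.30), a call lost without the second library of LPS with IL-10 (-1.33). Its relative Pim2 rose at 12 h (2.17 ± 0.19) and was lower there with IL-10 (-1.70 ± 0.19). Ddit3 (CHOP) fell at 3 h (-1.63 ± 0.18), and Mdm2, which encodes the ligase that degrades p53, rose at 6 h (1.83 ± 0.18) and 12 h (1.92 ± 0.18).

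For each member, the gene with the most similar pattern was sought among 8676 genes tested in both tables. Likeness was the smaller of the Pearson correlations over the 8 and the 14 libraries, which share treatments and library preparation, so it is a description only. Bcl2 was most like Hhex (0.985), Bcl2a1d like Cd69 (0.993), Bcl2a1b like Gm20645 (0.993), Mcl1 like Trappc8 (0.965) and Pmaip1 like Mylip (0.897). Bax was most like Cope (0.978), Bak1 like Csnk1d (0.953), Bid like Acot11 (0.884), Bcl2l1 like Zfp592 (0.839) and Bcl2l11 like Epb41l2 (0.772).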

How the data were processed

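RNA sequencing of 22 libraries in 11 groups of 2 was deposited as 2 tables of 38293 genes. Per the labels' protocols, RNA was column-purified with a DNase step and made into TruSeq libraries. Per the submitters' processing notes, the authors used TopHat2, DESeq2 and the GRCm38 genome. Which counter, annotation and strand setting they used is not given in the sources used here. For each gene the deposited signal is a count scaled by the authors with 1 size factor for each library. In 100% of values, division by the value of 1 read in that library gave whole reads within 0.01, and these recovered reads entered the count tests. Both tables were normalized separately by the authors, and no level was tested across them.

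Using R 4.3.3, limma 3.58.1 was fitted to log2(value + 1) over all groups of a table, with eBayes and its trend option. A gene entered with 10 normalized reads or more in 2 or more libraries, which left 12338 genes at 3 h and 12817 in the other table. Tests were two-sided, adjusted by Benjamini-Hochberg, at a threshold of 0.05. The log2(value + 1) scale understates changes of low genes, and an SE pools the spread of all groups of a table. The alternatives were pseudocounts of 0.25 and 5, no filter, equal library totals, TMM, quantile normalization, edgeR 4.0.16 and DESeq2 1.42.0 on recovered reads, only the groups compared, library weights, a replicate block, leaving out libraries, summed Bcl2a1 rows and, added after seeing the data, removal of each library's trend along transcript GC. The fits were tested on simulated data.

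The members, gene lists and comparisons were chosen with earlier results of these data known. Named genes are all 10 members, the detected genes of a list of other BCL-2 family genes, up to 3 called genes per other list and comparison (LPS, or IL-10 during LPS) with a log2 change of at least 1, by smallest p, and the gene most like each member among those with a mean of at least 100 normalized reads in each table. GENCODE M21 gave coordinates and transcripts. The identifiers of Bcl2a1a and Bcl2a1d in the files are not in it, so these genes were matched by symbol. Of the members, 9 matched the RefSeq promoter table. Intervals for shares are Wilson intervals at the 95% level. Interactions used the same fit, and no set test was run. A called gene of the apoptosome and caspase list is not reported here.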

Additional observations from a re-analysis of the deposited data

Results flagged for a closer look

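A difference between the 6 h and 12 h responses, tested in the limma fit of the second table, drew attention to 3 members. Because both times share the same control group, a difference between the responses equals the difference between the treated groups. The response of Bcl2 to LPS was less negative at 12 h than at 6 h, by 1.26 (log2), and its response to LPS with IL-10 by 1.83. For Bcl2l11 the response to LPS with IL-10 was higher at 12 h by 0.91, and for Pmaip1 by 1.56. For the corresponding LPS responses, Bcl2l11 differed by -0.03 and Pmaip1 by 0.08 between the times, and neither passed the threshold. The difference between the LPS and the LPS with IL-10 courses was 0.94 for Bcl2l11 (adjusted p = 0.0596) and 1.48 for Pmaip1 (adjusted p = 0.106) by limma, while DESeq2 called both (adjusted p = 0.00204 and 0.0263), so whether the courses differ depends on the test. When the first 12 h library was left out of every group, the difference was 0.94 for Bcl2 with LPS and 1.39 for Pmaip1 with LPS and IL-10, neither past the threshold.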

How the results depend on the processing

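Of 3800 member values under alternatives, 3607 stayed on the same side of the threshold, among them 146 uncalled values that changed sign. A further 101 newly passed, 88 no longer passed and 4 reversed with a call. Of 32 member calls, 14 were made under every alternative. The reversals were Bcl2l1 at 3 h with LPS (-0.58 at equal library totals, -0.42 with quantile normalization), Bak1 at 3 h (-0.44) and Bcl2l11 at 6 h (-1.12), both at equal totals. Bcl2l2 reversed at equal totals too, at 6 h (-0.29) and 12 h (-0.25). The cause was not tested.

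Counts of members called moved as follows. Calls over all genes moved with the setting too, so nothing particular to the members is read from these counts. For IL-10 alone at 3 h (0), the replicate block gave 1 and removal of the GC trend 1. For IL-10 during LPS at 3 h (4), library weights and fitting only the groups compared each gave 7. For the interaction at 3 h (0), the replicate block gave 2, GC trend removal 2 and DESeq2 1. For IL-10 during LPS at 6 h (4), equal totals gave 1, quantile normalization 2 and GC trend removal 8. Of all 12817 genes, the main fit called 1750 higher and 1287 lower there. Quantile normalization called 1274 and 901, and GC trend removal 2538 and 2329. Equal totals called 3215 higher and 613 lower of 13014. For the interaction at 6 h (0), GC trend removal gave 2, and only the groups compared, DESeq2 and the fit leaving the first 12 h library out of every group 1 each. For LPS at 12 h (7), quantile normalization gave 4 and only the groups compared 3. For IL-10 during LPS at 12 h (0), GC trend removal gave 1, and leaving out the first 12 h libraries gave 2, namely Bcl2a1b (-3.06) and Bcl2a1d (-3.24). For LPS at 12 h against 6 h (1), equal totals gave 2, GC trend removal 5, and quantile normalization and leaving out the first 12 h libraries 0. For the IL-10 effect at 12 h minus 6 h (0), GC trend removal and DESeq2 each gave 2.

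Leaving out 1 library in turn gave 5 to 7 members for LPS at 3 h, 7 to 8 at 6 h and 5 to 7 at 12 h. For IL-10 alone at 3 h it gave 0 to 3 (3 without the second control), and for the interaction 0 to 3 (2 and 3 without the first and second control). For IL-10 during LPS at 3 h it gave 1 to 6 (1 or 2 without any of the 4 libraries compared, 6 without either control). For the same comparison at 6 h it gave 1 to 6 (1 without either LPS library or the second combined-treatment library, 6 without either control or either combined-treatment library of 12 h). The interaction at 6 h gave 0 to 3 (3 without the first control, 1 without the second or without the first combined-treatment library of 6 h). IL-10 during LPS at 12 h gave 0 to 2 (2 without the first combined-treatment library). LPS at 12 h against 6 h gave 0 to 1 (0 without the first LPS library of either time), LPS with IL-10 at 12 h against 6 h 3 to 4, and the IL-10 effect at 12 h minus 6 h 0 to 2 (2 without either control, 1 without the second LPS library of 12 h). A lone library left in a group is assumed to vary like the others. These counts are a check on the fits, and nothing particular to the members is read from them.

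Same-numbered libraries did not all deviate together, with correlations of their deviations from -0.05 to 0.27 in the 3 h table and -0.41 to 0.70 in the other. The replicate numbers were therefore not taken as pairs, and the replicate block changed no other count by over 1.5 times. With 2 libraries a group, and a read worth up to 2.17 normalized reads, differences of low genes such as Bmf and the Bcl2a1 genes in unstimulated cells are set by few reads.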
